A study of Mus musculus with 211 samples.

Results

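Genes of the actin cytoskeleton were examined in single cells of the adult mouse cochlea. A set of 10 genes of the 48709 in the count table was chosen by name and found through the Ensembl identifier. They were the actins *Actb* and *Actg1*, the actin monomer binding genes *Tmsb4x* and *Pfn1*, the filament turnover genes *Cfl1*, *Dstn* and *Coro1a*, the Arp2/3 subunit gene *Arpc1b*, the bundling gene *Lcp1* and the non-muscle myosin gene *Myh9*. All 10 were found, and all 10 passed the filter on low counts in both comparisons below.

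The cells came from CD1 mice carrying the *Lfng*-EGFP BAC transgene, in which GFP follows the *Lfng* promoter, at postnatal day 60 (P60) or 120 (P120), and no other allele or treatment distinguished the ages. GFP-positive cells were sorted from dissected cochleae, captured on the Fluidigm C1 and made into 1 full-length cDNA library per cell. The table held 211 cells, of 8 captures at P60 and 4 at P120, with 4 mice pooled per capture. The capture, a pool and not an animal, was taken as the replicate.

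Actin monomers add to growing filaments with the help of profilin, while thymosin β4 holds monomers in reserve. Cofilin and destrin sever and depolymerise filaments, the Arp2/3 complex starts branches, plastin bundles filaments and non-muscle myosin II pulls on them. In the cochlea, supporting cells carry dense actin and microtubule bundles, whereas in leukocytes the same machinery drives migration and uptake of particles, and *Lcp1* (L-plastin) and *Coro1a* (coronin 1A) are known chiefly from blood cells.

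A cell held between 41 and 5361476 reads on genes (median 736455), and 33 of the 211 cells held fewer than 10000. Capture 10c stood apart, with a median of 451 reads over its 13 cells. The label of the cells as adult cochlear supporting cells was checked against markers. A list of 14 supporting cell genes took 0.0335% of all reads, *Cldn11* of that list was at 0, and 4 cells held at least 10 reads of at least 3 of its genes, the rule by which a cell was counted as positive for a list. A list of 8 general leukocyte genes took 0.812% of reads and was positive in 162 cells. None of the 211 cells was positive for the hair cell list, which allows a share of up to 1.42%. None was positive for the endothelial cell list either, but the authors had removed endothelial cells, so this count says nothing of the sorted cells. The cells are therefore named below by the rule that grouped them and not as supporting cell types.

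The 10 genes differed widely in level. *Actb* (ENSMUSG00000029580.14, GRCm38 chromosome 5 from 142903115 to 142906754), the cytoplasmic β-actin gene, took 4.83% of all reads on genes and ranked 2 among all genes. *Tmsb4x* (ENSMUSG00000049775.16, chromosome X from 167207093 to 167209315), which encodes thymosin β4, took 0.709% and ranked 10. The other 8 took between 0.0176% for *Arpc1b*, at rank 851, and 0.243% for *Lcp1*, at rank 32. Per length, in CPM (reads of a gene for each 1000000 reads on genes) per kilobase of exon over all cells, *Actb* stood at 18019.6 and *Tmsb4x* at 5168.7. *Pfn1* at 431.9 and *Dstn* at 426.0 lay close together, as did *Actg1* at 304.9 and *Coro1a* at 301.7, and *Cfl1* at 257.4 and *Lcp1* at 255.6. Each of these pairs of neighbours differed by less than the spread between captures. *Myh9* at 100.1 and *Arpc1b* at 34.4 were lowest. The length was that of all annotated exons of a gene merged, from 1371 bases for *Tmsb4x* to 12928 for *Myh9*. The order and the close pairs thus depend in part on the annotation. Reads of *Actb*, *Actg1* and their near-identical copies could be shared or lost in counting, so the levels of both actins are uncertain.

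*Actg1* (ENSMUSG00000062825.15, chromosome 11 from 120345690 to 120348542) encodes the γ-actin that supporting cells and hair cells are known to use beside β-actin. Its promoter was the one window among the 10 genes with a CArG box, the site of serum response factor, which is known to drive actin genes. Windows of 300 bases, from 250 before to 50 after each RefSeq transcript start on GRCm38.p6, matched 9 of the 10 genes in 11 windows, and *Actb* had no entry. The CArG box reads the same on both strands, and 1.63% of the 32851 windows of all genes held one. The *Actg1* window is printed because it is the one with a match, with the box in capitals. The box starts 90 bases before the transcript start.
*Actg1* promoter, chr11:120348446-120348745, minus strand: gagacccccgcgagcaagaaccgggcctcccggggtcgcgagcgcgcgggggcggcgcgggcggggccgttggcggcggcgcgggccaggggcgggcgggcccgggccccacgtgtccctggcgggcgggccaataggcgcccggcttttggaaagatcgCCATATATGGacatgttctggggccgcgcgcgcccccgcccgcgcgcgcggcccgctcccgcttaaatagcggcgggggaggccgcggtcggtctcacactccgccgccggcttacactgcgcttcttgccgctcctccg

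Reads of a gene were not spread evenly over cells. The 21 cells with the most reads of *Arpc1b* (ENSMUSG00000029622.16, chromosome 5 from 145114215 to 145130705), a subunit of the Arp2/3 complex, held 84.6% of its reads, and 1 cell alone held 20.8%. For *Dstn* (ENSMUSG00000015932.8, chromosome 2 from 143915320 to 143943324), the destrin gene, the corresponding 21 cells held 73.6%. For *Tmsb4x* they held 32.7%, close to the 30.3% of all reads on genes that the 21 deepest cells held. *Actb* reached 42.7% of the reads of a single cell with fewer than 50000 reads, and at most 28.7% in cells with at least 50000. In 33 of the 211 cells *Actb* took over 10%. Those 33 cells held 36.7% of the *Actb* reads and 12.5% of all reads. Among the 164 cells with at least 50000 reads, 24 exceeded 10%, and 17 of these came from capture 38, 4 from capture 36, 2 from capture 40 and 1 from capture 10c. In capture 38, 17 of the 21 deep cells were over 10%, with a median of 14.3%, whereas the median was 1.30% in capture 32 and 1.61% in capture 28 at the same age. The share of *Actb* in a cell varied little with depth in this set, with a Spearman correlation of 0.06, while the shares of *Actg1*, *Dstn* and *Cfl1* rose with depth with correlations of 0.40 each. These correlations are across cells that share captures and carry no p-value.

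When every cell was thinned at random to 50000 reads, *Actb* and *Tmsb4x* had a read in all 164 cells. *Myh9* (ENSMUSG00000022443.16, chromosome 15 from 77760587 to 77842175), the heavy chain of non-muscle myosin IIA, was detected in 159 of the 164 cells and *Lcp1* (ENSMUSG00000021998.16, chromosome 14 from 75131101 to 75230842) in 94.5%. *Pfn1* (ENSMUSG00000018293.4, chromosome 11 from 70651850 to 70654644), the profilin 1 gene, was detected in 146 cells, *Actg1* in 81.1% and *Coro1a* (ENSMUSG00000030707.15, chromosome 7 from 126699773 to 126707787) in 79.9%. *Cfl1* (ENSMUSG00000056201.7, chromosome 19 from 5490455 to 5495201), the cofilin 1 gene, was detected in 75.6%, *Dstn* in 57.3% and *Arpc1b* in 82 of the 164 cells, with an exact 95% interval for *Arpc1b* from 42.1% to 57.9%. All 10 genes were detected in 41 of the 164 cells. Unthinned, all 10 were detected in 93 of 211 cells and *Arpc1b* in 60.2%. Intervals cover counting error only. Exons of *Cfl1*, *Lcp1*, *Coro1a* and *Arpc1b* overlap genes on the opposite strand (*Snx32*, *Gm15629*, *Bola2* and *Pdap1*), and reads were not known to keep their strand, so that reads in the overlap cannot be told apart.

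Cells with clear supporting cell transcripts were few, and their actin genes are described without a test. In capture 21c, 2 cells had 4.76% and 1.2% of their reads on the supporting cell list and 0 and 1 reads of *Ptprc*, the pan-leukocyte marker. *Actb* stood at 1032.5 and 3481.6 CPM in these cells, below its 39548 CPM in the median P60 capture. *Myh9* and *Arpc1b* had 0 reads in both. *Lcp1* and *Coro1a* had 0 reads in the one and 1 read in the other, *Pfn1* likewise, and *Cfl1* had 0 and 5. *Actg1* stood at 678.5 and 144.5 CPM, and *Dstn* had 1 read in the first cell and 1090 in the second. Another 2 list-positive cells, in capture 28, held reads of *Elane*, *Mpo*, *Il1b* and *Ptprc* as well, and *Lcp1* stood at 12469 and 1795.5 CPM in them.

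**Figure D1:**
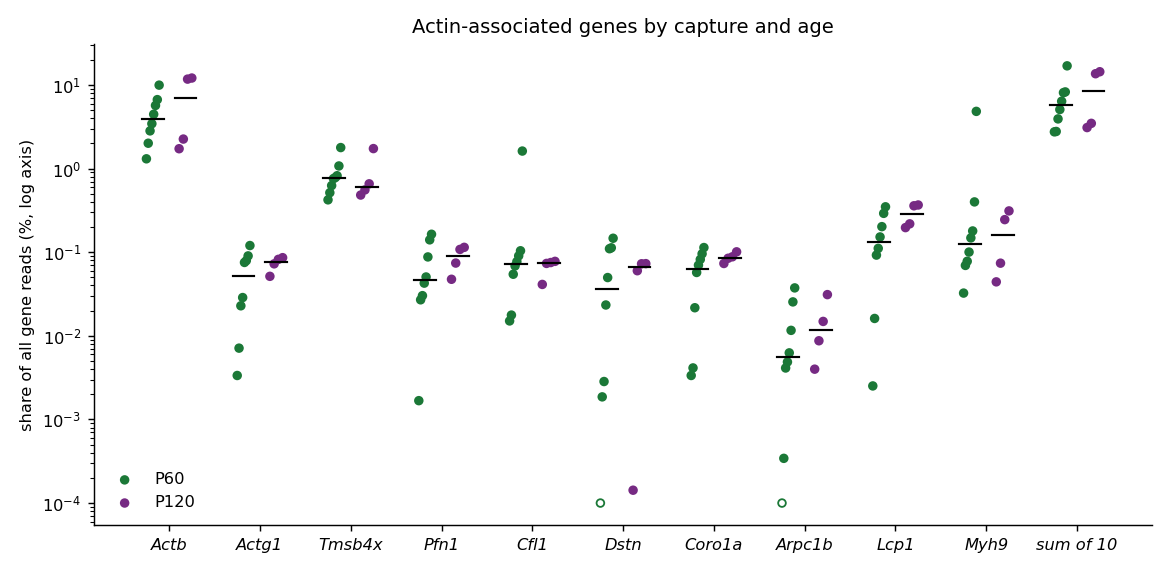
Share of all gene reads taken by each gene (y axis, %, log axis) in the 8 P60 captures (green) and the 4 P120 captures (purple), with the median of each age as a black bar and open circles for captures at 0. The captures of the ages overlap for each gene, and capture 10c gives the high P60 points of *Myh9* at 4.84% and *Cfl1* at 1.62%.

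Ages were compared over capture totals, the sum of all cells of a capture. The summed share of the 10 genes ranged from 2.75% to 16.9% over the P60 captures, with a median of 5.74%. The highest value was that of capture 10c, where 1 cell gave 93.1% of the reads, and the next was 8.26% in capture 40. At P120 it was 3.48% in capture 28, 3.10% in capture 32, 14.4% in capture 36 and 13.6% in capture 38. The P120 captures thus lay both below and above the P60 median. The means were 6.78% ± 4.64 (SD, n = 8) and 8.65% ± 6.21 (SD, n = 4), a difference of 1.87 percentage points with p = 0.547 by an exact two-sided permutation test over captures. Adjusted over the 2 exact tests reported here, the value was 0.547. The difference turned to -0.540 points without *Actb* and to -0.0430 points without capture 36. Without capture 10c it was 3.33 points, with p = 0.221 by the same permutation test. In bulk sums of this kind, fewer cells with a gene and less RNA of it per cell cannot be told apart.

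None of the 10 genes differed between the ages by the quasi-likelihood test of edgeR with Benjamini-Hochberg adjustment at 0.05, beside 5 genes called in each direction among the 8346 tested (0.0599% in each direction). DESeq2 likewise called 0 of the 10, beside 0.0359% of all genes upward and 0.0479% downward from P60 to P120. At an unadjusted p under 0.05, 2 of the 10 and 443 of all genes stood out. The P60 and P120 captures overlapped for all 10 genes, whereas they were apart for 0.419% of all genes tested. *Actb* ranged from 1.31% to 9.96% of reads at P60 with a median of 3.95%, where the maximum was capture 10c and the next 6.68% in capture 40. It stood at 2.26%, 1.73%, 11.8% and 12.1% in the P120 captures 28, 32, 36 and 38. *Tmsb4x* ranged from 4230.2 to 17845 CPM at P60 with a median of 7699.4, and from 4827.2 to 17352 CPM at P120 with a median of 6069.6. *Lcp1* ranged from 25.2 to 3492.1 CPM at P60 and from 1969.3 to 3671.9 CPM at P120. The other genes also spread widely at P60, where *Actg1* ranged from 33.5 to 1202 CPM, *Pfn1* from 16.8 to 1639 CPM, *Coro1a* from 33.5 to 1137 CPM and *Arpc1b* from 0 to 374 CPM. Capture 10c, with 0 to 4 reads of each, gave these minima and that of *Lcp1*. The next lowest P60 values were 71.2 CPM for *Actg1*, 270 for *Pfn1*, 41.3 for *Coro1a*, 3.43 for *Arpc1b* and 161 for *Lcp1*. At P120 *Actg1* ranged from 515 to 861 CPM, *Pfn1* from 475 to 1144 CPM, *Coro1a* from 733 to 1011 CPM and *Arpc1b* from 39.9 to 311 CPM, so that the P120 range lay inside the P60 range for all of these. In cells thinned to 50000 reads, *Arpc1b* was detected in 48 of 80 cells at P60 and 34 of 84 at P120, *Cfl1* in 83.8% and 67.9%, and *Dstn* in 62.5% and 52.4%, for which no test over captures was made.

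The 2 genes with a small unadjusted p turned on capture 10c. *Myh9* had a log2 fold change of P120 over P60 of -3.25 (SE 1.42, adjusted p = 0.718 by edgeR) and *Cfl1* one of -3.58 (SE 1.51, adjusted p = 0.682 by edgeR). *Myh9* ranged from 324.5 to 48356 CPM at P60 with a median of 1243.4, and from 442.1 to 3118.7 CPM at P120. *Cfl1* ranged from 150.7 to 16211 CPM at P60 with a median of 729.1, and from 411.8 to 777.4 CPM at P120. Capture 10c held both P60 maxima, and a single cell gave 93.1% of its reads, with *Actb* at 10.4%, *Myh9* at 5.17% and *Cfl1* at 1.74% of the 110984 reads of that cell. Without capture 10c the log2 fold changes were 0.71 for *Myh9* and 0.38 for *Cfl1*. *Dstn* was at 0 in capture 10c and at 1.42 CPM in capture 36, against 18.6 to 1469.0 CPM in the others. All 6 captures of the first sequencing run were P60, and within the captures of the later runs 0 of the 10 genes were called and 0 had an unadjusted p under 0.05.

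Cells with *Elane* or *Mpo*, granule enzymes of immature granulocytes, were then compared with cells with *Il1b*, the interleukin 1β gene that activated and mature myeloid cells express. A cell was an Elane/Mpo cell with at least 10 reads of *Elane* or *Mpo* and fewer than 10 of *Il1b*, and an Il1b cell with at least 10 reads of *Il1b* and fewer than 10 of both others. There were 43 Elane/Mpo cells, 92 Il1b cells, 24 that reached 10 reads on both sides and 52 on neither. The classes were paired within captures, and captures 9c (P60), 28, 32 and 38 (P120) had at least 3 cells of each. The classes also differed in other ways. The median depth was 1700682 reads in Elane/Mpo cells and 653435 in Il1b cells. A list of 5 basophil genes, none of them at 0, was positive in 9 Elane/Mpo cells and 0 of 92 Il1b cells, which allows a share of up to 3.26%, and took from 0.00110% to 5.76% of reads in the Elane/Mpo cells of the 4 captures and from 0.000381% to 0.00223% in their Il1b cells. The list of 8 leukocyte genes, also with none at 0, took from 0.212% to 0.555% and from 0.692% to 1.34%. A list of 6 late neutrophil genes, none at 0 and with *Il1b* among them, was positive in 10 Elane/Mpo cells and 84 Il1b cells, and took from 0.00675% to 0.172% and from 1.55% to 3.11%. The part of depth and of leukocyte, late neutrophil and basophil transcripts in the differences below was not tested.

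**Figure D2:**
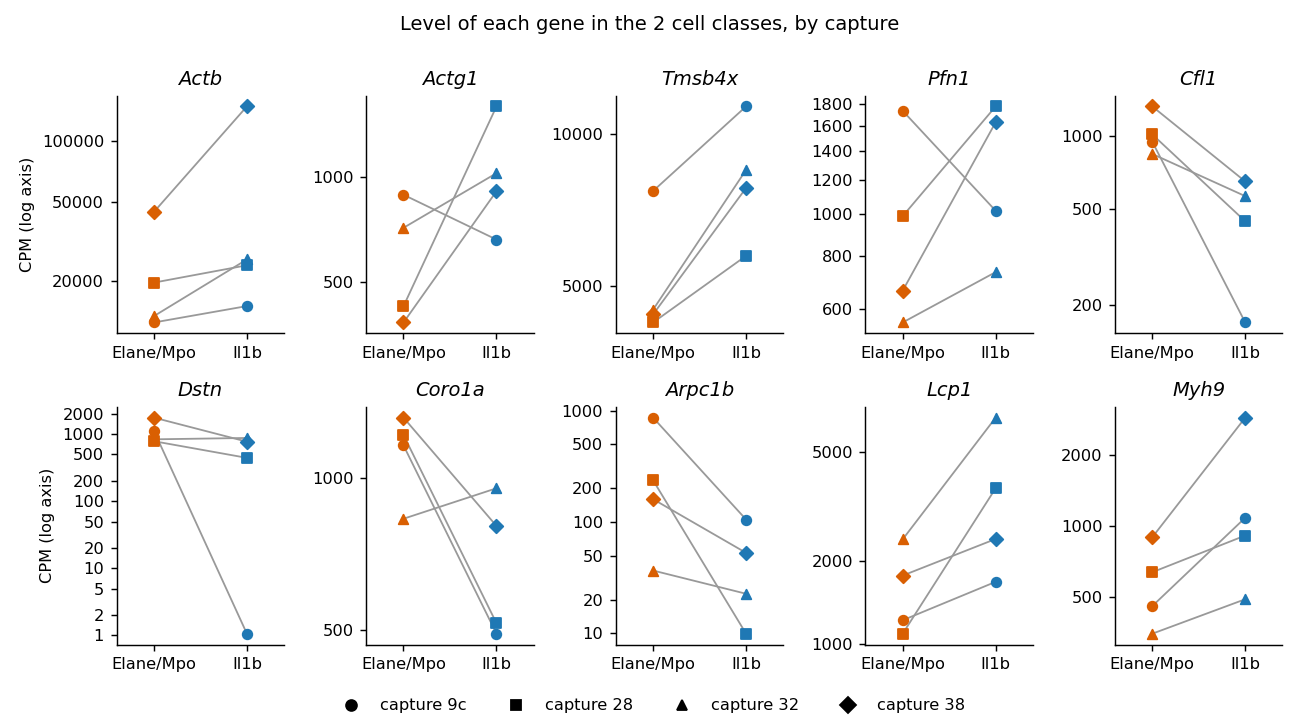
Level of each gene in CPM (y axis, log axis) in the Elane/Mpo cells (orange) and the Il1b cells (blue) of captures 9c, 28, 32 and 38, with lines joining the classes of a capture. *Actb*, *Tmsb4x*, *Lcp1* and *Myh9* rise to the right in all 4 captures, and *Cfl1* and *Arpc1b* fall in all 4.

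The 10 genes together took a larger share of reads in Il1b cells than in Elane/Mpo cells of the same capture. The shares were 3.16% against 2.85% in capture 9c, 3.91% against 3.03% in capture 28, 4.55% against 2.44% in capture 32 and 16.7% against 5.70% in capture 38. Il1b cells were thus higher in each capture, although the ranges of the classes overlapped. The mean difference, Elane/Mpo minus Il1b, was -3.58 percentage points ± 5.02 (SD, n = 4) with p = 0.125 by an exact two-sided sign-flip permutation test, the smallest that 4 captures allow, and 0.25 after adjustment over the 2 exact tests. Without *Actb* the difference was -0.474 points, and without capture 38 it was -1.10 points.

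*Actb* was lower in Elane/Mpo cells and was the 1 gene of the 10 called, beside 1.56% of the 5775 genes tested that were called higher in Il1b cells. None of the 10 was called higher in Elane/Mpo cells, beside 0.312% of all genes tested, and 864 of all genes and 3 of the 10 had an unadjusted p under 0.05. The share of *Actb* in Elane/Mpo and Il1b cells was 1.24% and 1.50% in capture 9c, 1.97% and 2.40% in capture 28, 1.34% and 2.57% in capture 32, and 4.43% and 14.9% in capture 38. The ranges overlapped, since the Elane/Mpo cells of capture 38 exceeded the Il1b cells of the other captures. The log2 fold change of Elane/Mpo over Il1b was -1.72 (SE 0.33, adjusted p = 5.5e-05 by edgeR with the capture as a block). The median over all genes tested was 1.28 in this fit and 2.21 when counts were scaled by library size alone. The value of *Actb* minus these medians was -3.0 and -2.95. Whether the medians reflect a shift shared by all genes was not tested, so these differences are descriptive. The call was lost in 8 of 14 alternatives, among them DESeq2 (log2 fold change -1.83, adjusted p = 0.260, with 0 of the 10 genes called beside 22.2% of all genes higher in Elane/Mpo cells and 9.82% higher in Il1b cells), library size alone (-0.74, adjusted p = 0.125), the fit without the block (-2.40, adjusted p = 0.0988) and the fit without capture 38 (-1.32, adjusted p = 0.269). Capture 38 was also absent from the fits of deep cells, of thinned cells and of captures with at least 5 cells of each class, where the call was lost too. Over all 14 the log2 fold change of *Actb* was negative, from -2.40 to -0.74, and its adjusted p ran from 6.71e-06 to 0.548.

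The other genes that stood higher in Il1b cells did not pass the test. *Tmsb4x* stood at 7711.0, 4233.8, 4488.9 and 4392.9 CPM in the Elane/Mpo cells of captures 9c, 28, 32 and 38, and at 11342, 5738.0, 8491.3 and 7820.1 CPM in their Il1b cells. It was higher in Il1b cells by 1.36-fold to 1.89-fold in each capture, with a log2 fold change of -1.60 (SE 0.62, unadjusted p = 0.00933, adjusted p = 0.151 by edgeR). *Lcp1* stood at 1217.1, 1086.8, 2405.3 and 1773.0 CPM in Elane/Mpo cells and at 1682.3, 3700.1, 6704.6 and 2413.3 CPM in Il1b cells, between 1.36-fold and 3.40-fold higher in the latter. Its log2 fold change was -1.95 (SE 0.82, unadjusted p = 0.0173, adjusted p = 0.205 by edgeR). *Myh9* stood at 459.4, 638.5, 351.4 and 896.7 CPM against 1084.4, 912.2, 491.2 and 2868.6 CPM, with an adjusted p of 0.400 by edgeR. The classes overlapped for all of these genes when captures were set aside, whereas 2.98% of all genes tested were apart with the higher level in Il1b cells. *Actg1* stood at 888, 427, 714 and 383 CPM in Elane/Mpo cells and at 661, 1588, 1024 and 909 CPM in Il1b cells. *Pfn1* stood at 1735, 987, 559 and 663 CPM against 1016, 1776, 732 and 1631 CPM. Both were higher in Il1b cells in 3 of the 4 captures, with capture 9c the other way, and their adjusted p-values were 0.499 and 0.561 by edgeR.

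*Cfl1* and *Arpc1b* stood higher in the Elane/Mpo cells of each capture in CPM, without passing the test. *Cfl1* stood at 947.2, 1015.6, 842.7 and 1325.9 CPM in Elane/Mpo cells and at 169.0, 443.4, 563.7 and 648.4 CPM in Il1b cells. The classes did not overlap, as was so for 15% of all genes tested with the higher level in Elane/Mpo cells. *Arpc1b* stood at 866.2, 237.0, 36.7 and 160.3 CPM against 105.3, 9.92, 22.7 and 52.8 CPM. *Dstn* stood at 1128.0, 788.4, 841.1 and 1772.5 CPM in Elane/Mpo cells and at 1.06, 445.1, 881.8 and 775.5 CPM in Il1b cells, so that capture 9c set the classes furthest apart and capture 32 reversed them. *Coro1a* stood at 1161, 1218, 831 and 1319 CPM against 492, 516, 955 and 804 CPM, higher in Elane/Mpo cells in 3 of 4 captures, with means of 1132.2 CPM ± 211.1 against 691.5 CPM ± 225.8 (SD, n = 4). The fitted log2 fold changes were 0.37 for *Cfl1*, 1.55 for *Arpc1b*, 0.59 for *Dstn* and -0.17 for *Coro1a*, and for *Coro1a* the sign turned to 0.83 with library size scaling. Minus the median of all genes, the values were -0.90 for *Cfl1*, -0.69 for *Dstn*, -1.45 for *Coro1a* and 0.28 for *Arpc1b*. This subtraction takes the median as a shift shared by all genes, which was not tested.

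In counts, 4 of the 10 genes were higher in Il1b cells in all 4 captures, against 6.72% of all genes tested, and 2 of the 10 were higher in Elane/Mpo cells in all 4, against 25%. Over the 7 captures with at least 1 cell of each class, *Actb*, *Tmsb4x* and *Lcp1* were higher in Il1b cells in all 7, against 1.11% of all genes tested. *Dstn* and *Coro1a* were higher in Elane/Mpo cells in 6 of 7, and *Cfl1* and *Arpc1b* in 5 of 7. This set of 7 was added after the data were seen, and it rests on 1 cell of each class in capture 17c and on 1 Il1b cell in capture 40. The median log2 fold change of the 10 genes was -1.49, beside 1.28 over all genes. The 10 genes are abundant, from rank 2 for *Actb* to rank 851 for *Arpc1b* by reads, and Elane/Mpo cells were deeper. No background of genes of like abundance was drawn. The part of abundance and depth in these contrasts with all genes was not tested.

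**Figure D3:**
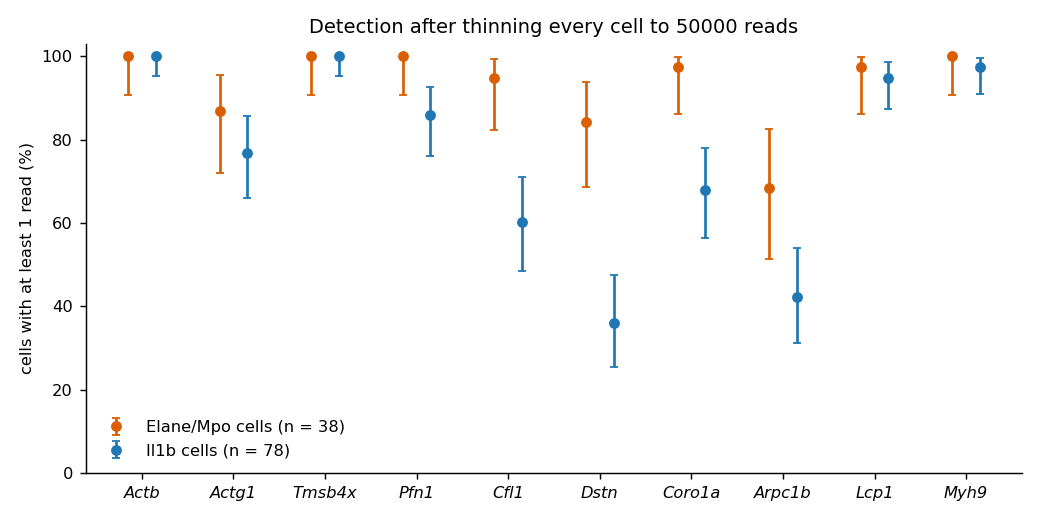
Share of cells with at least 1 read of each gene (y axis, %) after every cell was thinned to 50000 reads, in 38 Elane/Mpo cells (orange) and 78 Il1b cells (blue), with exact 95% intervals. The classes were set on all reads of a cell, before thinning. The intervals cover counting error over cells pooled from several captures and do not compare the classes. *Dstn* stands at 84.2% and 35.9%, and *Actb* and *Tmsb4x* are at 100% in both, where no difference could show.

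Detection was compared in cells thinned to equal depth, with the classes still set on all reads of a cell. By their thinned reads alone, 15 of the 38 Elane/Mpo cells and 7 of the 78 Il1b cells would fall in neither class. The classes thus depend in part on depth. *Actb* and *Tmsb4x* were found in every thinned cell of both classes and could show no difference. Of the thinned cells, *Dstn* was detected in 84.2% of the Elane/Mpo cells and 35.9% of the Il1b cells, *Cfl1* in 94.7% and 60.3%, *Coro1a* in 97.4% and 67.9%, and *Arpc1b* in 68.4% and 42.3%. *Pfn1* was detected in 100% and 85.9%, *Actg1* in 86.8% and 76.9%, *Lcp1* in 97.4% and 94.9%, and *Myh9* in 100% and 97.4%. Unthinned, the shares for *Dstn* were 95.3% and 64.1%. In captures 9c, 28 and 32, which kept at least 3 thinned cells of each class, *Dstn*, *Cfl1*, *Coro1a* and *Arpc1b* were detected in a larger share of Elane/Mpo cells in 3 of 3. These were 4 of the 10 genes, beside 43.3% of all genes tested, so the count was near the background. *Dstn* in capture 9c was detected in 3 of 3 Elane/Mpo cells and 0 of 7 Il1b cells, which allows a share of up to 42.9%, and in capture 28 in 11 of 15 and 4 of 6. The median thinned cell had 10 of the 10 genes in the Elane/Mpo class and 8 in the Il1b class, and all 10 were found in 22 of 38 and 6 of 78 cells. No such count per cell was made over all genes, so these counts cannot be read as a trait of the 10 genes. No test across cells was made, since cells of a capture are not replicates.

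Within the 164 cells with at least 50000 reads, the median *Actb* share was 4.90% in Il1b cells, 3.21% in cells of neither class, 1.88% in Elane/Mpo cells and 1.85% in cells with both. Shares over 10% went with the capture. The 19 Il1b cells over 10% were 15 of 15 in capture 38 and 4 of 11 in capture 36, and none was in the other captures. Of the 38 Elane/Mpo cells 0 exceeded 10%, which allows a share of up to 7.89%, but capture 38 held 2 of them and capture 36 none. Within captures the median *Actb* share in Elane/Mpo and Il1b cells was 1.39% and 1.63% in 9c, 1.55% and 1.29% in 28, 0.951% and 2.38% in 32, and 4.64% and 16.2% in 38, so that capture 28 ran the other way. For *Tmsb4x* the median was 0.981% in Il1b cells and 0.441% in Elane/Mpo cells, and for *Dstn* it was 0.000174% and 0.0453%. The ratio of *Cfl1* to *Actb* reads was higher in Elane/Mpo cells in each capture, at 7.63% against 1.13% in 9c, 5.17% against 1.85% in 28, 6.31% against 2.20% in 32 and 2.99% against 0.434% in 38. This ratio does not depend on the scaling of the libraries. The ratio of *Dstn* to *Cfl1* had no common direction, at 119% against 0.629% in 9c and 99.8% against 156% in 32.

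Other genes of the actin cytoskeleton were read from 9 lists with 89 genes, of which 72 were tested between the classes. In all, 2 were called (2.78%, beside 1.56% of all genes tested called higher in Il1b cells), both higher in Il1b cells and both actins, and 22 of the 72 had a positive and 50 a negative log2 fold change, with a median of -0.98 beside 1.28 over all genes. The called genes were *Actb* and the smooth muscle actin gene *Acta2*, with a log2 fold change of -12.44 (SE 3.36, adjusted p = 0.0166 by edgeR). *Acta2* had 7 reads in 2 Elane/Mpo cells and 6014 reads in 17 Il1b cells of the 4 captures. Its top cell, with 3538 of its 20722 reads, was a cell of neither class in capture 40. The call of *Actb* was lost in 8 of 14 alternatives, and that of *Acta2* was not followed in them. The 2 calls are too few to be read as a trait of the lists, and the lists were not matched to all genes in abundance. The actin list (3 tested of 6) had a median of -1.74, the Arp2/3 complex (9 of 9) -0.69, monomer binding and filament turnover (14 of 16) -0.23, and capping and severing (9 of 9) -2.10. Nucleation promoting and elongation genes (12 of 15) had a median of -1.48, myosin II and its kinases (7 of 10) -1.49, membrane linkers and tropomyosins (5 of 7) -1.58, and bundling and crosslinking genes (6 of 10) 2.78. No gene of these lists beyond the actins was called. Between the ages, 0 of 76 tested genes of the lists were called by edgeR, and 5 had an unadjusted p under 0.05 (6.58%, beside 5.31% of all genes tested). The class genes themselves had log2 fold changes of 10.56 for *Elane*, 11.96 for *Mpo* and -12.84 for *Il1b*, which the rule fixed.

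Whether the class difference changed with age could be asked over the 7 captures with at least 1 cell of each class, of which 4 were P60, since only 1 P60 capture had 3. None of the 8459 genes tested differed (0% in each direction), with 146 at an unadjusted p under 0.05 by edgeR, among them 1 of the 10, *Dstn* (adjusted p = 1).

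**Figure D4:**
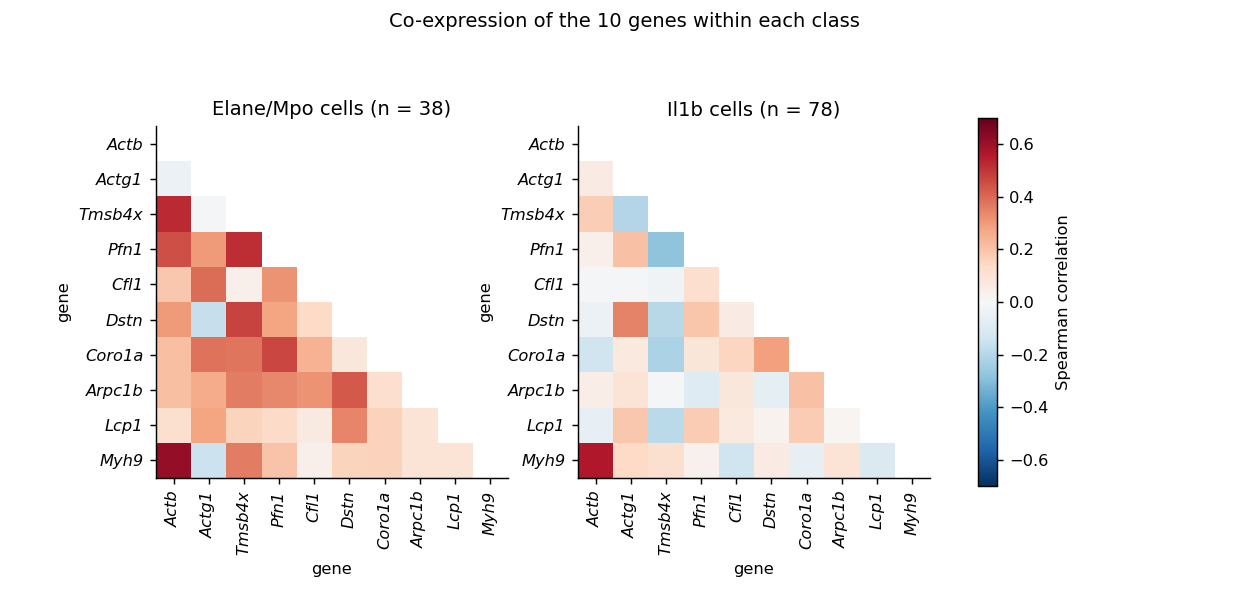
Spearman correlation (color, from -0.7 to 0.7) of each pair of the 10 genes over cells thinned to 50000 reads, in 38 Elane/Mpo cells (left) and 78 Il1b cells (right). The square of *Actb* and *Myh9* is dark in both, at 0.61 and 0.56, and the median over the 45 pairs is 0.21 on the left and 0.06 on the right.

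Co-expression was described by the Spearman correlation across the 164 thinned cells, which share captures and a fixed total, so no p-value is given. Over the 45 pairs the median was 0.10, from -0.22 for *Dstn* with *Tmsb4x* to 0.62 for *Actb* with *Myh9*, and 30 pairs were above 0. *Actb* with *Myh9* was above 0 within each of the 7 captures with at least 10 such cells, from 0.21 to 0.70, and stood at 0.61 in Elane/Mpo cells and 0.56 in Il1b cells. The one other pair above 0 in all 7 captures was *Lcp1* with *Coro1a*, at 0.08 to 0.26. *Actb* with *Tmsb4x* stood at 0.40 over all cells and was above 0 in 6 of 7 captures. The paralogs *Actb* and *Actg1* stood at 0.09.

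Several pairs with *Tmsb4x* stood on opposite sides of 0 in the classes. *Pfn1* with *Tmsb4x*, which both bind actin monomers, stood at 0.52 in Elane/Mpo cells and -0.28 in Il1b cells, and *Dstn* with *Tmsb4x* at 0.47 and -0.20. *Coro1a* with *Tmsb4x* stood at 0.38 and -0.22. The classes pool captures, and within captures, over cells of all classes, *Pfn1* with *Tmsb4x* was above 0 in 6 of 7, from -0.32 to 0.66. *Dstn* with *Tmsb4x* was above 0 in 4 of 7 captures and *Coro1a* with *Tmsb4x* in 3 of 7. The median over all pairs was 0.21 in Elane/Mpo cells and 0.06 in Il1b cells. These differences between classes were not tested.

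**Figure D5:**
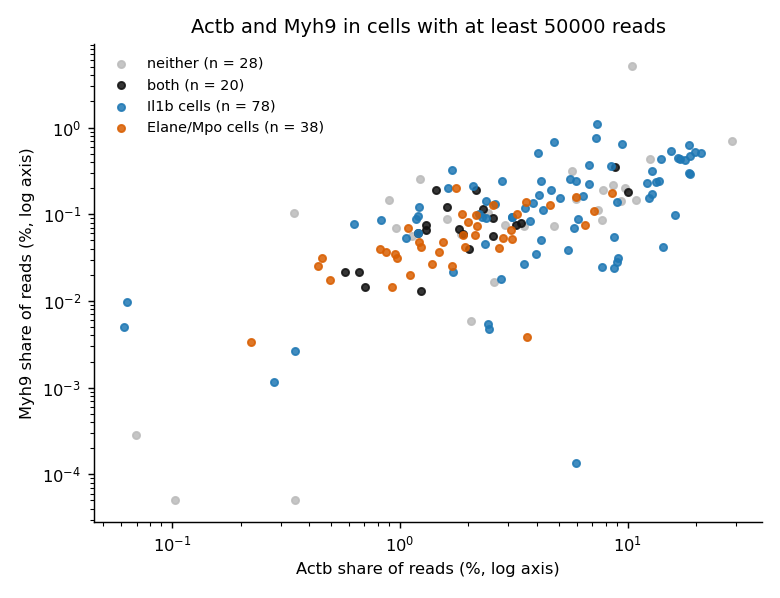
Share of reads of *Myh9* (y axis, %, log axis) against that of *Actb* (x axis, %, log axis) in 164 cells with at least 50000 reads, colored by class, with 2 cells at 0 for *Myh9* drawn at the lower edge. Both shares rise together, and the cell with the highest *Myh9* share, 5.17%, is the deep cell of capture 10c.

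Among 340 genes detected in most thinned cells, the gene most like *Actb* was *Myh9* at 0.62, followed by *Kdm6b* at 0.53, against a median of -0.04 over the 340. *Dstn* was most like *Serpinb1a* at 0.61 and *Chil3* at 0.57, and *Tmsb4x* most like *S100a11* at 0.54 and *Msrb1* at 0.53. For *Cfl1* the leading genes were *Hmgn2* at 0.44 and *Gm10282* at 0.41, for *Coro1a* *Vim* at 0.39 and *H2afz* at 0.38, and for *Pfn1* *Aldoa* at 0.38 and *Igsf6* at 0.36. For *Arpc1b* they were *Gpx1* at 0.37 and *Cotl1* at 0.34, for *Actg1* *Arhgdib* at 0.36 and *Calm2* at 0.34, and for *Lcp1* *Myl12b* at 0.33 and *Slfn2* at 0.32. *Myh9* was followed by *Actb* and then *Btg1* at 0.37. *Actb* and *Myh9* were the one pair of the 10 that were each other's nearest gene.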

How the data were processed

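The authors captured single cells, made SMARTer cDNA, aligned reads with STAR (build GRCm38, mm10 in the labels), and removed endothelial cells and outliers. The deposited table holds raw counts of reads per gene for 211 cells, without molecular identifiers. The capture, age and sequencing run came from the deposited cell table, whose GFP intensity and uniquely mapped reads were not used. Symbols matched 48349 of 48709 genes, and 92 spike-in rows (12.3% of reads) were left out. The treatment of reads that align to several genes is not given in the sources used here.

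Capture totals, and totals of each class within a capture, were tested with edgeR 4.0.16 in R 4.3.3 (TMM, filterByExpr, quasi-likelihood F test, Benjamini-Hochberg at 0.05, capture as a block for the classes). DESeq2 1.42.0 was the other tool. SEs were derived from the log2 fold change and F. The fit code was run on simulated counts with the same dispersion for every gene and no capture effect. That run does not give error rates for captures as uneven as these. Exact tests used numpy 2.4.6, with scipy 1.17.1 for intervals (Clopper-Pearson, 95%), pandas 2.3.3 and matplotlib 3.10.9 in Python 3.11.15. CPM scales the reads of a gene to a total of 1000000. Thinning kept the 164 cells with at least 50000 reads. No doublet caller was run. A cell was positive for a marker list with reads of at least 3 of its genes at 10 or more. Where 0 cells met a rule, the share said to be allowed is 3 divided by the number of cells, an approximate limit.

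Nothing says that captures were separate litters, so p-values measure the spread between captures. The members and lists were chosen with earlier results of these data known. The text names the 10 genes, the called genes furthest from 0 in each actin list between the classes (up to 3), the pair of genes most like each member among those detected in most thinned cells, and *Elane*, *Mpo* and *Il1b*. Genes that overlap a member, *Cldn11* and *Ptprc* are named beside these as context. The age interaction needed at least 2 captures per age with 3 cells of each class and could not be fitted, so captures with 1 cell were used. Lists for granulocyte precursors, late neutrophils, basophils, macrophages and erythroid cells were positive in 42, 127, 18, 2 and 1 cells. The median of 1 of the 9 actin gene lists is not reported here.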

Additional observations from a re-analysis of the deposited data

Results flagged for a closer look

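The captures of an age, or of a class, were searched for a single value set apart from the rest by more than Dixon's 95% limit, in 44 groups of 4 or 8 captures, and 8 groups had one. The limit gives about 1 in 20 by chance for independent, normally distributed values. These groups share captures, and the sum of the 10 genes repeats its members, so the 8 of 44 cannot be set against that rate. At P60, capture 10c was apart for *Myh9* at 48356 CPM (next highest 3996.4), for *Cfl1* at 16211 CPM (next 1040.6) and for the 10 genes together at 169415 CPM (next 82617). At P120, capture 36 was apart for *Tmsb4x* at 17352 CPM (next 6576.2) and, as the lowest, for *Cfl1* at 411.8 CPM (next 734.6). In Il1b cells, capture 38 was apart for *Actb* at 149439.9 CPM (next 25660) and for the 10 genes together at 167363 CPM (next 45526). In Elane/Mpo cells, capture 9c was apart for *Tmsb4x* at 7711.0 CPM (next 4488.9). No cause of these values was tested.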

How the results depend on the processing

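Of 10 genes, 0 were called between the ages under each of the 18 alternatives. Calls over all genes at P120 and P60, 5 and 5, were 3 and 4 with DESeq2, 1 and 4 with library size alone, 17 and 5 without a filter, 3 and 4 in cells with at least 50000 reads, 2 and 0 in captures of the later runs and 0 and 0 with thinned cells, and between 1 and 10 and between 0 and 8 with 1 capture left out (1 and 0 without 10c, 1 and 1 without 36). The summed age difference ran from -0.0430 to 3.73 points with 1 capture left out and was -0.540 without *Actb*. No paired analysis was possible between the ages because a capture holds 1 age. Signs of age log2 fold changes turned as follows. *Actb* was -0.33 in deep and -0.18 in thinned cells. *Actg1*, *Pfn1* and *Arpc1b* were -0.31, -0.38 and -0.054 in the later runs, where *Myh9* was 1.13. *Myh9* was 0.18 and *Tmsb4x* -0.61 with DESeq2. *Dstn* was 0.18 in thinned cells. With 1 capture left out, *Actb* ran from -0.55 (without 36) to 1.47, *Myh9* from -4.32 to 0.71 and *Cfl1* from -3.86 to 0.38 (both highest without 10c), *Tmsb4x* from -1.07 (without 36) to 0.69, and *Dstn* from -0.56 to 0.32.

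Between the classes, calls higher in Elane/Mpo and Il1b cells, 18 and 90, were 1283 and 567 with DESeq2, 66 and 48 with library size alone, 8 and 52 without a filter, 8 and 40 in deep cells, 13 and 29 with no replicate block, 1 and 5 with captures of at least 5 cells per class, and between 6 and 15 and between 36 and 70 with 1 capture left out. Added after the data were seen, captures with at least 1 cell gave 314 and 82, capture and run as the block 64 and 22, and thinned cells 6 and 40. The 1 call among the 10 genes, *Actb*, became 0 with DESeq2, library size alone, deep cells, no replicate block, at least 5 cells, the run block, thinned cells and without capture 38, so it ranged from 0 to 1 with a capture left out. The fits of deep cells and of thinned cells kept 3 captures and that of at least 5 cells kept 2. Capture 38 was in none of these fits, so they cannot tell depth or cell number from its removal. The summed class difference was -4.00 points with captures of at least 1 cell and from -4.68 to -1.10 with 1 capture left out. *Cfl1* was -0.017 with classes set on thinned cells, -0.14 with at least 5 cells, -0.89 with at least 1, -0.32 with the run block and from -0.19 to 0.59 with 1 capture left out. *Coro1a* was 0.83 with library size, 0.18 with at least 1 cell, 0.25 with the run block, 0.58 in thinned cells and from -0.55 to 0.11 with 1 left out. *Dstn* was -0.012 with no block, -0.65 with at least 5 cells and from -0.48 to 1.36 with 1 left out. The age interaction called 0 genes with each capture left out. Classes set at 1 read left too few captures and were not run. The cause of these shifts was not tested. Depth limits detection, with *Dstn* read in 94 and *Arpc1b* in 82 of the 164 thinned cells.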
